A study of Mus musculus with 12 samples.

Results

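Mouse zinc finger genes with a numbered Zfp symbol on chromosomes 7 and 13 were examined, 100 genes that averaged 1 RPKM or more (reads scaled to transcript length and to the mapped total) over 12 libraries. They were drawn from 121 such genes of any level on these chromosomes, within a table of 23260 genes of which 13273 reached that mean. Where a gene had more than 1 transcript row, its row of highest mean stood for it, and 75 of the genes lay on chromosome 7 and 25 on chromosome 13. The genes were chosen by their mean level over all libraries, and a small p-value of Zfp748 in the comparison of the injected groups drew attention to them, so both are given below as description.

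The study asked whether microRNAs placed in the zygote leave a trace in the adult hypothalamus. In the miR group (replicates 1 to 6), hybrid zygotes (C57/Bl6:129S6/SvEvTac) were microinjected with 9 miRIDIAN mimics (miR-375, miR-204, miR-698, miR-532-3p, miR-193-5p, miR-32, miR-29c, miR-30c and miR-30a) in 1X DPBS, each at 0.11 ng/uL and together at 1 ng/uL. In the PBS group (replicates 7 to 12), zygotes of the same hybrid received 1X DPBS alone, and the embryos of both groups were implanted into CD1 surrogate dams. RNA came from punches of the paraventricular nucleus (PVN), the hypothalamic nucleus that drives the hormonal stress response, of adult male offspring at 18 to 20 weeks. Each library is 1 animal. The labels do not name litters, so p-values measure the spread between these animals, some of which may be litter mates. In a bulk punch, fewer cells of a type and less RNA per cell cannot be told apart.

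Proteins of this class carry tandem C2H2 fingers, in which a pair of cysteines and a pair of histidines hold a zinc ion while the loop between them reads DNA bases. Many also carry a KRAB domain, which recruits the corepressor Trim28 and, through it, the histone methyltransferase Setdb1, and this complex is known for silencing transposable elements and imprinted loci. KRAB genes arose by tandem duplication and lie in clusters of similar copies, which vary between mouse strains.

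Sequencing depth, estimated from the smallest steps of the values, was 22.8 to 45.1 M reads in miR libraries and 27.6 to 38.1 M in PBS libraries. The defining PVN markers Oxt, Avp, Crh, Sim1, Otp and Trh were all present, with a summed level of 1984 to 5160 RPKM in miR libraries and 2190 to 5779 RPKM in PBS libraries. Meg3, a nuclear noncoding RNA of an imprinted domain, was at 49.9 to 68.1 RPKM in the miR libraries. In the PBS libraries it was at 50.6 RPKM in replicate 7, 158 in 8, 316 in 9, 190 in 10, 58.0 in 11 and 245 in 12. PBS replicates 7 and 11 therefore stood with the miR libraries in Meg3, apart from the other 4 PBS libraries. With limma, 0 of the 13273 genes passed an adjusted p of 0.05 (0.0%), and 2691 (20.3%) had an unadjusted p under 0.05.

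The 100 genes were expressed at low to moderate levels, from 1.03 to 19.9 RPKM with a median of 3.44 RPKM, and 26 of them reached 5 RPKM. Zfp187, known in humans as the SCAN domain gene ZSCAN26, had the highest level, 19.1 ± 1.37 RPKM in miR libraries and 20.8 ± 2.77 RPKM in PBS libraries (SD, n = 6 each). Next came Zfp941 with 15.5 ± 0.676 RPKM in miR and 14.2 ± 0.982 RPKM in PBS libraries, and Zfp146 with 14.7 ± 0.648 RPKM in miR and 12.8 ± 1.66 RPKM in PBS libraries. These 3 differences were not past an adjusted p of 0.05 in limma (adjusted p = 0.401, 0.211 and 0.186). Zfp260, Zfp60 and Zfp428 followed with means of 13.2, 12.5 and 11.5 RPKM over all libraries. Just inside the level limit were Zfp619 at 1.03 and Zfp934 at 1.23 RPKM, and just outside it were Zfp455 of chromosome 13 at 0.959 and Zfp773 of chromosome 7 at 0.893 RPKM.

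By gene structure the group was diverse. Translation of the matching GENCODE M21 coding sequences, available for 99 of the 100 genes, gave a median of 12 C2H2 finger patterns, from 0 to 33. The 33 belonged to Zfp619, while Zfp36, which encodes the CCCH protein tristetraprolin that destabilizes messenger RNAs with AU-rich elements, and Zfp935 had none. A KRAB box A pattern was found in 60 of the 99, in 18 of 25 genes of chromosome 13 and in 42 of 74 of chromosome 7. A missing match says only that the letters searched were not in the annotated coding sequence.

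Zfp748, a KRAB gene with 23 finger patterns, lies on the minus strand of chromosome 13 (chr13:67639590-67654088, mm9, 4 exons). Its level was 3.89, 4.41, 3.99, 3.92, 4.50 and 4.01 RPKM in miR replicates 1 to 6, against 3.75, 3.43, 3.16, 3.04, 3.61 and 3.07 RPKM in PBS replicates 7 to 12. All miR libraries lay above all PBS libraries, and the 2 highest PBS libraries were replicates 7 and 11, those of low Meg3. The difference was 0.27 ± 0.06 (SE) on the log2(RPKM + 0.5) scale, a fold of 1.20, given without a test because its p drew attention to the gene. Reads of Zfp748 are little shared with other genes, since 0.748% of its 50-base stretches occur in other annotated genes.

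**Figure D1:**
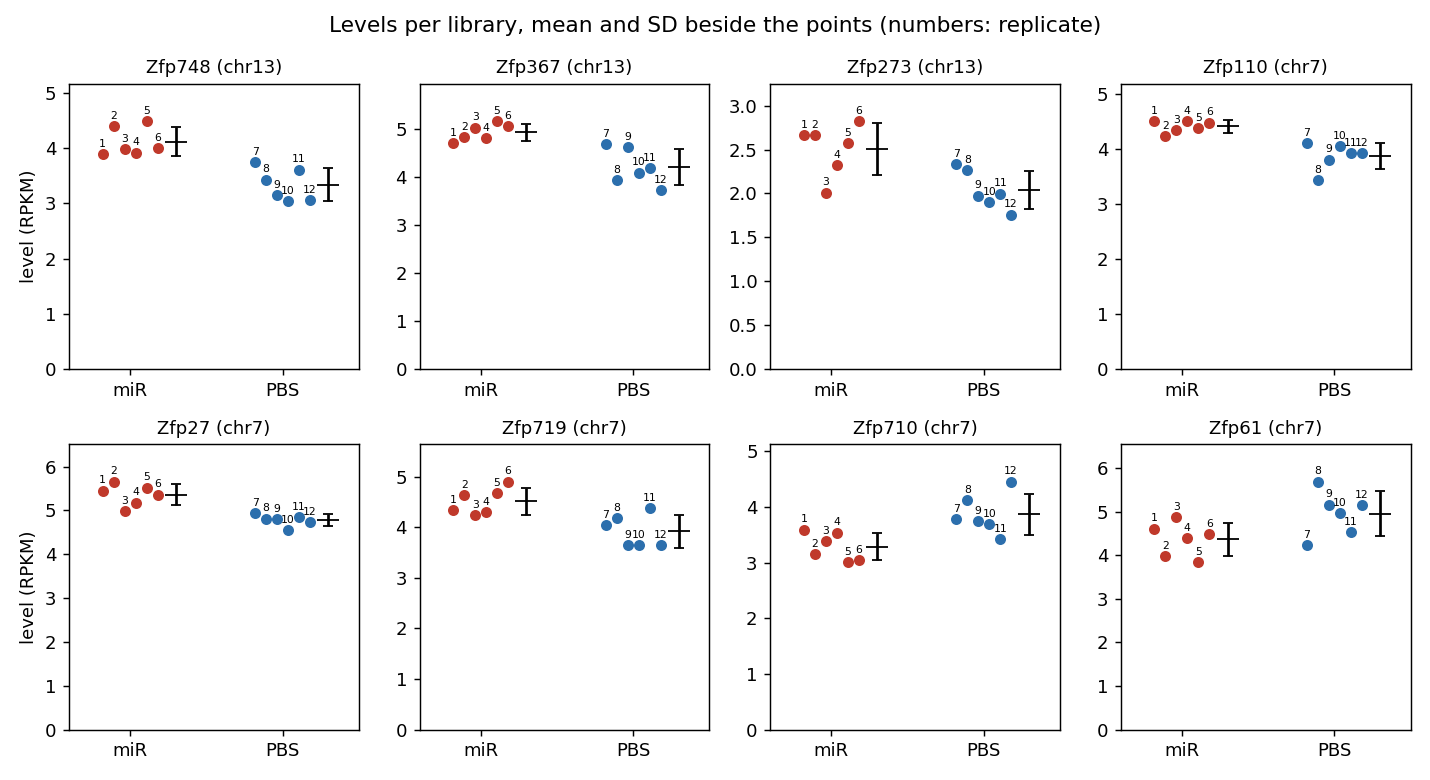
Levels in RPKM (vertical axis, from 0) of 8 of the genes in each library, with miR replicates 1 to 6 in red at the left and PBS replicates 7 to 12 in blue at the right of each panel; the bar beside the points is the mean with its SD. In Zfp748, Zfp367, Zfp110 and Zfp27 all miR points lie above all PBS points, and in Zfp710 and Zfp61 the miR points lie mostly below with overlap.

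The first complete finger of Zfp748 is shown beside those of 2 neighbours in its cluster and of Zfp710, a gene of chromosome 7 whose difference had the opposite sign. Each line is the 84 coding bases of the finger and its linker from the GENCODE M21 transcript, and capitals mark the codons of the zinc-holding cysteines and histidines.
Zfp748: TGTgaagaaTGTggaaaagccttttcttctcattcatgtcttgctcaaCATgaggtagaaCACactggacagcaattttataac
Zfp87: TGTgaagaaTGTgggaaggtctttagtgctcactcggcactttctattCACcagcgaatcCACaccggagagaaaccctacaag
Zfp273: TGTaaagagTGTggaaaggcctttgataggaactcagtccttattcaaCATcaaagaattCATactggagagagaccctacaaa
Zfp710: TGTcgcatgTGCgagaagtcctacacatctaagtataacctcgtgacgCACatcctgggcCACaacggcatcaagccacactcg
Zfp87 had 54 and Zfp273 53 of the 84 bases in common with Zfp748 at the same positions, and Zfp710 had 32. By the same count Zfp759 of the cluster had 51 and Zfp110 of chromosome 7 had 43. The first finger of each gene was taken, and these need not be corresponding fingers. The counts therefore do not measure how far the copies have diverged. The GC content of the stretches shown was 38.1% in Zfp748, 48.8% in Zfp87, 39.3% in Zfp273 and 53.6% in Zfp710.

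Zfp748 is 1 of 13 genes of the group in a cluster of 0.788 Mb (chr13:67139530-67927937, mm9), in which every gene lies within 500 kb of the next. The region holds the Rsl (regulator of sex-limitation) candidate genes, known in mouse for their effect on sex-biased liver genes. All 13 had a KRAB box A match, with a median of 16 fingers. Levels were 1.57 to 4.93 RPKM, and the fitted difference between miR and PBS was above 0 in 12 of the 13, with a median of 0.21 on the log2 scale. An unadjusted p under 0.05 was found for 9 of them, all higher in miR. Zfp748 is among the 9, and its call is no test, because its p drew attention to the group and so to this cluster. None of the 13 passed the adjusted threshold. By the same rule 9.12% of all tested genes were called higher, but 34.1% of the 551 tested genes below 40% GC in their transcript, and the median GC content of the cluster was 39.1%. The 9 became 5 without miR replicate 5 (5.49% of all tested genes higher) or without PBS replicate 10 (5.1%), 1 higher and 1 lower after the GC correction described below (3.83% higher and 8.36% lower), and 0 with Meg3 as a covariate (0.377% higher).

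Within the cluster, Zfp273 had 2.01 to 2.83 RPKM with a median of 2.62 in miR libraries, against 1.76 to 2.33 RPKM with a median of 1.99 in PBS libraries (difference 0.25 ± 0.08, limma adjusted p = 0.177). Its groups overlapped, with miR replicate 3 at 2.01 RPKM inside the PBS range. Zfp458 had 1.38 to 2.01 RPKM in miR libraries with a median of 1.79, against 1.22 to 1.74 RPKM with a median of 1.37 in PBS libraries (0.24 ± 0.09, limma adjusted p = 0.192). Zfp759 averaged 2.35 ± 0.264 RPKM in miR and 1.94 ± 0.214 RPKM in PBS libraries, and Zfp712 averaged 2.24 ± 0.281 RPKM in miR and 1.85 ± 0.223 RPKM in PBS libraries (SD, n = 6 each). These KRAB genes had overlapping groups, with every miR library above the PBS median.

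The remaining copies of the cluster differed in size of difference. Zfp874a and Zfp874b, a pair of near copies, had differences of 0.19 ± 0.06 and 0.03 ± 0.06. Their levels were 3.53 ± 0.264 RPKM for Zfp874a in miR and 3.04 ± 0.235 RPKM in PBS libraries, against 3.18 ± 0.256 RPKM for Zfp874b in miR and 3.11 ± 0.154 RPKM in PBS libraries. The 2 genes share 16.3% and 14.2% of their 50-base stretches with other annotated genes, mostly with each other, so reads could be divided between them in either way. Zfp87 (0.16 ± 0.06) and Zfp738 (0.06 ± 0.07) also had positive differences. Zfp58 was the gene of the cluster with a negative one, -0.07 ± 0.08. It had 2.72 ± 0.314 RPKM in miR and 2.89 ± 0.283 RPKM in PBS libraries, and 50.2% of its stretches occur in other annotated genes.

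For other copies the value may be uncertain because of shared sequence. Sharing was counted by gene name and not by position, so a differently named annotation of the same locus also counts as shared. All 50-base stretches of Zfp708 occur in another annotated transcript (100%), and its row overlaps Rslcan18 on the same strand. It had 1.85 ± 0.446 RPKM in miR and 1.51 ± 0.153 RPKM in PBS libraries. Zfp273 shares 24.3% of its stretches with other annotated genes. Over all the genes examined, 13 share more than 20% of their stretches, and 8 of these 13 had a positive difference, beside 43 of the 72 that share at most 5%. Of the 100 genes, 9, which include Zfp187, Zfp273, Zfp575 and Zfp710, overlap a row on the opposite strand, and whether the authors' counting used strand is not stated.

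The promoters of this cluster hold a common letter pattern, which is shown as a description. The genes and the motifs were chosen with earlier results of these data known. Promoters of tandem copies are not independent, and several windows below also share letters beside the pattern. RefSeq promoters (GRCm38.p6, 250 bases before to 50 after the gene start) matched 91 of the 100 genes. The pattern searched on both strands, ACTACA and TCCC with any 2 bases between them, belongs to the site known for the transcription factor ZNF143, whose mouse gene Zfp143 is itself in the group. It was present in 34 of the 91 promoters (37.4%), in 12 of 22 of chromosome 13 (54.5%) and in 22 of 69 of chromosome 7 (31.9%). Among genes with a KRAB box A match it was in 28 of 58 promoters (48.3%), and among those without one in 6 of 32 (18.8%). In the cluster of Zfp748 it was present in 11 of 12 promoters (91.7%), against 7.65% of the 170 matched promoters of Zfp genes on other chromosomes and 1.98% of all 27025 promoters. Windows of 30 bases are shown for 9 of the 11. Each runs 5′ to 3′ along the gene, with the pattern in capitals.
Zfp712: gagaattgtGGGAAATGTAGTctcgtccgc
Zfp759: ttgatttgtGGGAAATGTAGTcccggcccc
Zfp458: ctgacttgtGGGAAATGTAGTcccaacaat
Zfp874a: cagacttgtGGGAAATGTAGTctgcagcac
Zfp874b: cagacttgtGGGAAATGTAGTctgtagcac
Zfp58: cagacttgtGGGAATTGTAGTctggccact
Zfp748: cagacttgtGGGAAGTGTAGTcttccgttg
Zfp738: ctgacttgtGGGAAGTGTAGTcccgtccct
Zfp273: tagacttctGGGAAATGTAGTttctctctg
All 11 matches run in the reverse direction, and 7 of them read GGGAAATGTAGT while Zfp748 and Zfp738 read GGGAAGTGTAGT. Between the pattern and the gene start lie 14 bases in Zfp748 and 166 in Zfp458. The window of Zfp748 is chr13:67553158-67553187 on the minus strand (GRCm38.p6), and that of Zfp273 is chr13:67813740-67813769 on the plus strand. The promoter of Zfp708 had no match. The whole promoter of Zfp748 (chr13:67553103-67553402, minus strand, GRCm38.p6) follows, with the match in capitals, and holds 15 CG dinucleotides.
Zfp748: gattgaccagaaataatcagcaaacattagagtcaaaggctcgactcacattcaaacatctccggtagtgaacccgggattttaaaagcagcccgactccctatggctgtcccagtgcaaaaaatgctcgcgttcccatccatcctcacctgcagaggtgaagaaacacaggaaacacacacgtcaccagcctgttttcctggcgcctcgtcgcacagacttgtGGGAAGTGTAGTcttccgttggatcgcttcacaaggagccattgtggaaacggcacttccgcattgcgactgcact
A copy of the pattern also stands in the promoter of Zfp146 on chromosome 7 (chr7:30169692-30169991, minus strand, GRCm38.p6).
Zfp146: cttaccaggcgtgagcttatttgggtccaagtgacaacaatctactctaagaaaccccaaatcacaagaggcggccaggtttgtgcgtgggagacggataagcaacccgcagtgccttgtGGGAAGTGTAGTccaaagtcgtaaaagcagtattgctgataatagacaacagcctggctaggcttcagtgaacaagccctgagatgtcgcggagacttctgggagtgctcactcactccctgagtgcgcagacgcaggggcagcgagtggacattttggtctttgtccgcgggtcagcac

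The other patterns searched gave shares closer to those of all promoters: CCAAT was in 39.6% of the 91 promoters and 37.9% of all, and TATAAA in 5.49% and 14.2%. The 91 promoters held a median of 14 CG dinucleotides, against 7 over all promoters. Of the 34 genes with the ACTACA pattern, 28 had a positive difference between miR and PBS, with a median of 0.08 and a median transcript GC content of 43.3%. Of the 57 without it, 32 had a positive difference, with a median of 0.02 and a median GC content of 49.6%. After the GC correction described below these medians were -0.0018 and -0.0058. A match is a description of the letters and not of binding, and Zfp143 itself averaged 2.66 ± 0.243 RPKM in miR and 2.76 ± 0.178 RPKM in PBS libraries (limma adjusted p = 0.697).

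Over all 100 genes, 63 had a positive and 37 a negative difference between miR and PBS, and 19 were higher and 2 lower at an unadjusted p under 0.05. Among all tested genes 9.12% were called higher and 11.2% lower by the same rule, and 52.9% had a positive difference. Zfp748 is among the 19, and its call is no test, because its p drew attention to the group. The median difference of the group was 0.04, beside 0.01 over all tested genes, 0.05 over the 217 Zfp genes of other chromosomes and -0.01 over the other 1367 tested genes of chromosomes 7 and 13. Of those 217 Zfp genes, 32 were higher and 18 lower at the unadjusted threshold. None of the 100 genes passed the adjusted threshold in limma, where the smallest adjusted p was 0.174. The 21 genes at the unadjusted threshold became 35 with library weights (38.2% of all tested genes), 12 without miR replicate 5 or without PBS replicate 10 (13.3% in each), and 6 of 26 with a limit of 5 RPKM (21.8%). At the adjusted threshold, 19 were called with library weights (22.9%), 21 without PBS replicates 7 and 11 (23.4%), 3 without PBS replicate 7 (6.85%) and 3 without PBS replicate 11 (3.23%), each count with Zfp748 in it.

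The 2 chromosomes differed in these counts. On chromosome 13, 21 of 25 genes had a positive difference, with 11 higher and 0 lower at an unadjusted p under 0.05 and a median of 0.15. On chromosome 7, 42 of 75 had a positive difference, with 8 higher and 2 lower and a median of 0.02. Among all tested genes 9.12% were called higher and 11.2% lower. The median transcript GC content was 39.2% on chromosome 13 and 49.2% on chromosome 7. Zfp748 is among the 11, and its calls are no test, because its p drew attention to the group. After the GC correction described below, 1 (Zfp748) was higher and 2 lower on chromosome 13, with a median of 0.04. On chromosome 7, 3 were then higher and 3 lower, with a median of -0.01 (3.83% and 8.36% of all tested genes). Genes with a KRAB box A match had a median of 0.08 (47 of 60 positive) and those without one -0.06 (15 of 39 positive), and their median transcript GC contents were 45.6% and 53.7%. These splits were made with the values known and were not tested.

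**Figure D2:**
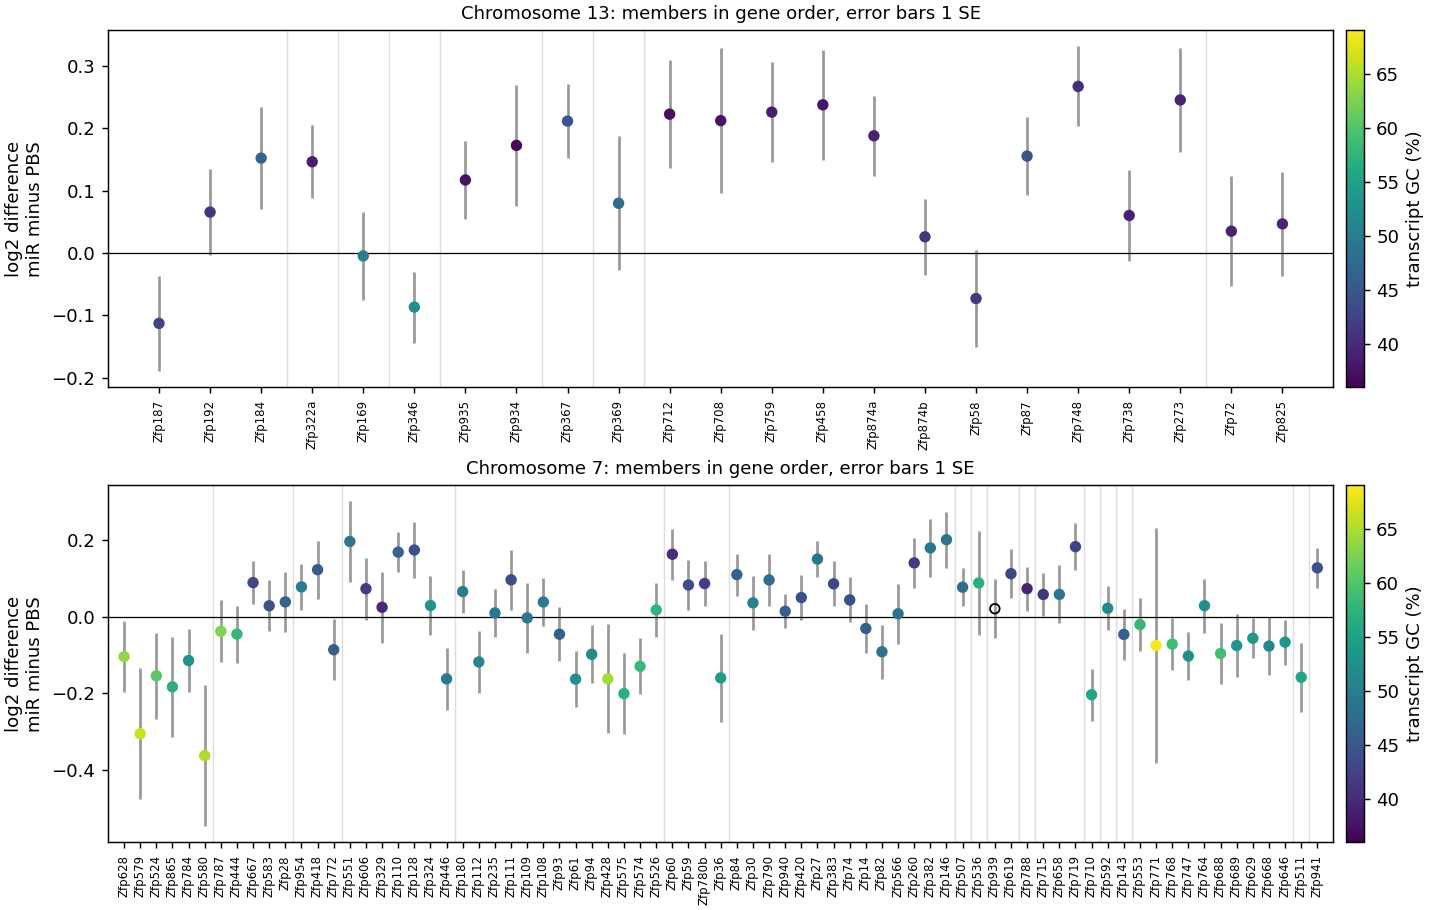
Fitted differences (log2 scale, miR minus PBS, bars 1 SE) of 23 of the 25 genes of chromosome 13 (top) and the 75 of chromosome 7 (bottom) in their order along the chromosome, coloured by transcript GC content; grey lines separate clusters, and the open circle is Zfp939, which has no matched transcript. The run of mostly positive values from Zfp712 to Zfp273 on chromosome 13 is the cluster of Zfp748, with a median of 0.21, and the 6 leftmost genes of chromosome 7 are all negative with a median of -0.17.

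Complete separation of the groups was seen for 5 of the 100 genes, in each with all 6 miR libraries above all 6 PBS libraries, beside 0.256% of all tested genes in that direction and 0.241% in the other. Zfp748 is 1 of them and drew attention to the group by the same comparison, so 4 of the other 99 remain: Zfp367, Zfp110, Zfp27 and Zfp619. Of the 217 Zfp genes of other chromosomes, 0 were separated in either direction. After the GC correction described below, the difference was 0.12 in Zfp367, 0.09 in Zfp110 and 0.10 in Zfp27. Zfp367, a gene of chromosome 13 outside the cluster with 2 fingers, had 4.70 to 5.17 RPKM with a median of 4.93 in miR libraries, against 3.72 to 4.67 RPKM with a median of 4.13 in PBS libraries (0.21 ± 0.06, limma adjusted p = 0.174). Zfp110 of chromosome 7 encodes NRIF, known to interact with the neurotrophin receptor p75. It had 4.23 to 4.51 RPKM with a median of 4.43 in miR libraries, against 3.43 to 4.10 RPKM with a median of 3.92 in PBS libraries (0.17 ± 0.05, limma adjusted p = 0.174). Zfp369, a related gene of chromosome 13, overlapped between the groups with 4.94 ± 0.408 RPKM in miR and 4.71 ± 0.990 RPKM in PBS libraries.

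Zfp27, a KRAB gene of chromosome 7 with 21 fingers, had 4.99 to 5.66 RPKM with a median of 5.41 in miR libraries, against 4.55 to 4.93 RPKM with a median of 4.81 in PBS libraries (0.15 ± 0.05, limma adjusted p = 0.174). Zfp619 had 1.07 to 1.11 RPKM in miR libraries and 0.920 to 1.05 RPKM in PBS libraries, at the lowest level of the group (0.11 ± 0.06, limma adjusted p = 0.326). Zfp719, also of chromosome 7, overlapped, with 4.24 to 4.90 RPKM and a median of 4.48 in miR libraries, against 3.64 to 4.38 RPKM and a median of 3.84 in PBS libraries (0.18 ± 0.06, limma adjusted p = 0.177). In Zfp719, PBS replicate 11 lay inside the miR range.

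In the other direction, the smallest p-values belonged to genes of chromosome 7. Zfp710 had 3.01 to 3.59 RPKM with a median of 3.27 in miR libraries, against 3.42 to 4.45 RPKM with a median of 3.76 in PBS libraries (-0.20 ± 0.07, limma adjusted p = 0.177). Zfp61, a KRAB gene, had 3.85 to 4.87 RPKM with a median of 4.44 in miR libraries, against 4.23 to 5.69 RPKM with a median of 5.05 in PBS libraries (-0.16 ± 0.07, limma adjusted p = 0.239). Both genes overlapped between the groups, and no miR library of either lay above the PBS median. Zfp446 and Zfp575 differed by -0.16 ± 0.08 and -0.20 ± 0.11, with an unadjusted p above 0.05.

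In several clusters most differences had the same sign, beside 52.9% positive among all tested genes. The genes fell into 27 clusters, of which 11 held 3 or more genes and 13 held 1 gene. In the cluster at chr7:4866819-5005325 (mm9), the GC-rich genes Zfp628, Zfp579, Zfp524, Zfp865, Zfp784 and Zfp580 all had negative differences, with a median of -0.17, a median GC content of 62.0% and no KRAB match. Of the 3433 tested genes at 55% GC and above, 15.2% had a positive difference, with a median of -0.10. Zfp580 averaged 4.84 ± 1.79 RPKM in miR and 6.05 ± 0.559 RPKM in PBS libraries, and Zfp579 averaged 3.27 ± 1.11 RPKM in miR and 4.02 ± 0.580 RPKM in PBS libraries. Their spread in miR libraries was wide, and neither had an unadjusted p under 0.05.

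The cluster at chr7:30553571-30954746, with 14 genes from Zfp84 to Zfp146, had 12 positive differences, 3 of them at an unadjusted p under 0.05, and a median of 0.07. By the same rule 9.12% of all tested genes were called higher. The median GC content of this cluster was 47.0%. Of the 3318 tested genes at 45 to 50% GC, 73.6% had a positive difference, with a median of 0.06, and 10.6% were called higher. In Zfp146 the PBS libraries spread widely, from 11.2 to 15.2 RPKM with a median of 12.4, against 13.8 to 15.5 RPKM with a median of 14.8 in miR libraries (0.20 ± 0.07, limma adjusted p = 0.186). The cluster at chr7:24866963-26012524, with 13 genes that include Zfp61 and Zfp428, had 5 positive differences and a median of -0.05. The cluster at chr7:134376957-135029510, with 10 genes from Zfp553 to Zfp646, had 1 positive difference and a median of -0.07. The median GC contents of these clusters were 51.0% and 53.8%. Of the 3490 tested genes at 50 to 55% GC, 43.0% had a positive difference, with a median of -0.02. Deviations from the group means, taken over the 12 libraries, had a median Pearson r of 0.30 in the 356 pairs of genes of the same cluster, 0.05 in the 4594 pairs of different clusters and 0.48 in the 78 pairs of the cluster of Zfp748. Pairs of a cluster share libraries, GC content and in part reads, and these values are a description.

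The differences followed transcript GC content, and those of all tested genes did the same. Across the 99 genes with a matched transcript, Spearman's rho between the difference and GC content was -0.72, and across 13005 tested genes it was -0.64. Genes are not independent replicates. Below 40% GC, all 16 genes of the group had a positive difference, with a median of 0.18, beside 88.7% of 551 tested genes with a median of 0.13. At 55% GC and above, 2 of 18 had a positive difference, with a median of -0.12, beside 15.2% of 3433 tested genes with a median of -0.10.

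**Figure D3:**
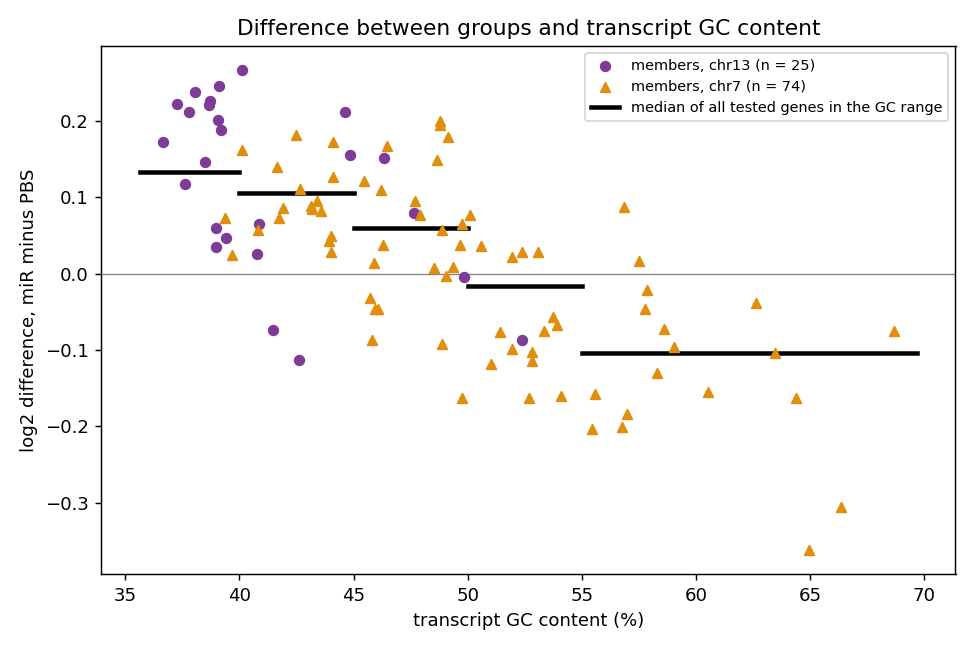
Fitted difference (log2 scale, miR minus PBS) against transcript GC content in percent for the genes of chromosome 13 (circles, 25) and chromosome 7 (triangles, 74); black bars are the median difference of all tested genes in each GC range. The points run along the bars, positive at low and negative at high GC content, with the low-GC genes of chromosome 13 at the upper left.

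After each library was corrected for its trend with GC content, 48 of the 100 genes had a positive and 52 a negative difference, with a median of -0.0053, and 4 were higher and 5 lower at an unadjusted p under 0.05 (3.83% and 8.36% of all tested genes). The rho over the 99 genes was then -0.07. In the cluster of Zfp748, 1 gene (Zfp748) was then higher and 1 (Zfp58) lower at an unadjusted p under 0.05, where 9 had been higher without correction. The call of Zfp748 is no test, because its p drew attention to the group. The median difference of the cluster after correction was 0.08, with 10 of 13 positive. Zfp748 itself had 0.14 after correction, and Zfp738 and Zfp874b changed sign to -0.07 and -0.09. The part of GC content in the differences was measured by this correction alone.

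The values of the cluster of Zfp748 were also set beside the Meg3 level of each library. The summed level of its 13 genes was 37.3, 40.3, 34.7, 36.9, 42.6 and 41.9 RPKM in miR replicates 1 to 6, against 35.4, 34.1, 32.4, 31.5, 37.8 and 33.6 RPKM in PBS replicates 7 to 12. PBS replicates 7 and 11, at 35.4 and 37.8 RPKM, were the highest of their group, and miR replicate 3 was the lowest of its own. The number of the 13 genes above their own mean over all libraries was 4 to 13 in miR libraries and 0 to 10 in PBS libraries, with 5 in PBS replicate 7 and 10 in replicate 11. The groups overlapped in this count, with 4 in miR replicate 3 and 4 in PBS replicate 8.

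**Figure D4:**
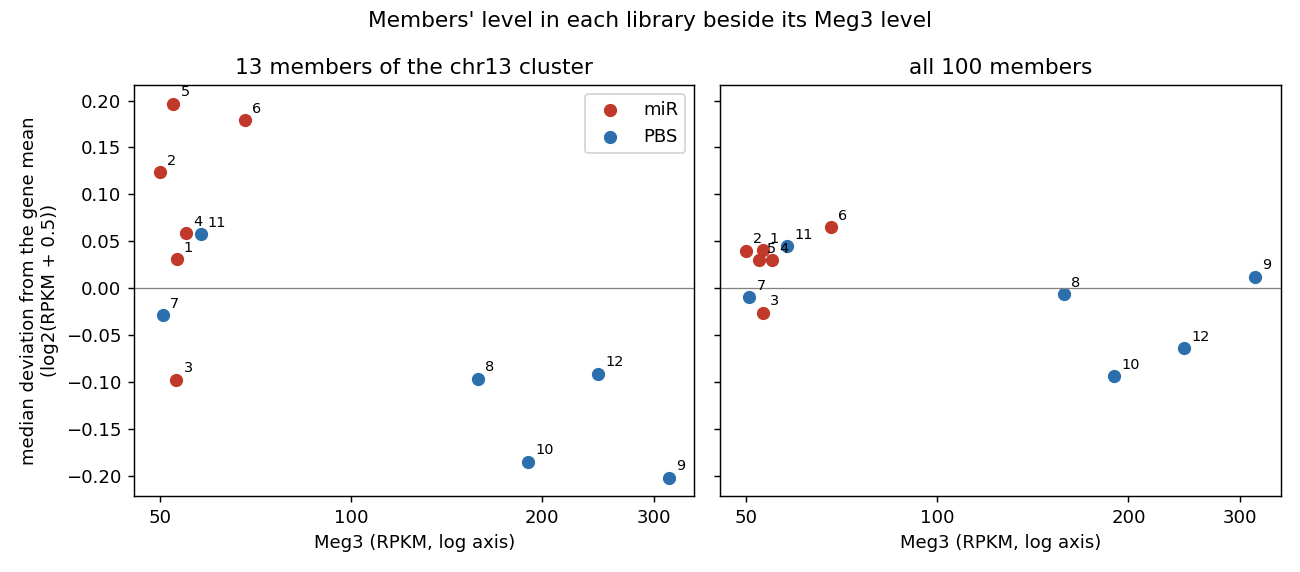
Median deviation of the genes from their own mean (log2(RPKM + 0.5), vertical axis) against the Meg3 level of the library (RPKM, log axis), for the 13 genes of the cluster of Zfp748 (left) and all 100 genes (right), with miR libraries in red and PBS libraries in blue, numbered by replicate. In the left panel PBS replicates 8, 9, 10 and 12, with 158 to 316 RPKM of Meg3, lie at -0.09 to -0.20, while PBS replicates 7 and 11 lie at -0.03 and 0.06 among the miR libraries. miR replicate 3, with 53.1 RPKM of Meg3, lies at -0.10, level with PBS replicates 8 and 12.

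Within the PBS group, replicates 7 and 11 both lay above replicates 8, 9, 10 and 12 in 28 of the 100 genes, beside 18.8% of all tested genes, and both below in 10, beside 14.5%. In the cluster of Zfp748 they lay above in 7 of 13 genes and below in 0. Over all 100 genes the library medians did not order by Meg3, since PBS replicate 9, with the highest Meg3, was at 0.01 and PBS replicate 10 at -0.09. The summed level of the 100 genes was 432 to 456 RPKM in miR libraries and 410 to 453 RPKM in PBS libraries. No correlation with Meg3 is given, because the PBS libraries fall into separate clusters of 2 and 4 libraries.

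With log2 Meg3 as a covariate, 2 of the 100 genes were higher and 1 lower at an unadjusted p under 0.05 (0.377% and 0.58% of all tested genes), and the median difference was 0.01. In the cluster of Zfp748, 0 of 13 genes then had an unadjusted p under 0.05, with 12 of 13 differences positive, a median of 0.10 and 0.14 in Zfp748. Without PBS replicates 8, 9, 10 and 12, 1 gene was higher and 0 lower in limma (0.392% and 0.354%), Zfp748 had 0.14, and the cluster had 0 genes at that threshold and a median of 0.08. Without PBS replicates 7 and 11, 25 were higher and 8 lower (20.3% and 17.4%), Zfp748 had 0.33 and the cluster a median of 0.28. These libraries were told apart by their own Meg3 level. Without PBS replicates 7 and 11, the injection and the state that Meg3 marks cannot be told apart, because the remaining PBS libraries all had high Meg3. PBS replicates 7 and 11 had 50.6 and 58.0 RPKM of Meg3, inside the miR range, so that fit compares few libraries at like Meg3.

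A list of corepressor and heterochromatin genes, which also holds the zinc finger genes Zfp57, Zfp568, Zfp809 and Zfp819, gave differences in both directions. Of 33 listed genes 27 were tested, 13 with a positive and 14 with a negative difference and a median of -0.00067, and 1 was higher and 6 lower at an unadjusted p under 0.05 (9.12% and 11.2% of all tested genes). Trim28, the KRAB corepressor, averaged 36.6 ± 2.73 RPKM in miR and 41.1 ± 3.86 RPKM in PBS libraries (-0.16 ± 0.07, limma adjusted p = 0.217). Setdb1, the methyltransferase it recruits, averaged 6.69 ± 0.352 RPKM in miR and 7.58 ± 0.896 RPKM in PBS libraries (-0.16 ± 0.07, limma adjusted p = 0.229). In both, PBS replicates 7 and 11 were the lowest PBS libraries. The transcript GC content of the 6 lower genes was 59.9% in Ehmt2, 59.6% in Trim28, 57.2% in Mta1, 51.7% in Zfp57, 49.95% in Hdac1 and 49.1% in Setdb1. By the same rule, 27.8% of all tested genes at 55% GC and above were called lower. The share was 9.68% at 50 to 55% GC and 2.98% at 45 to 50% GC. The part of GC content in the differences of this list was not tested.

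Zfp57, a KRAB protein of chromosome 17 that maintains DNA methylation at imprinted loci, had 2.88, 3.28, 2.65, 2.55, 3.78 and 3.40 RPKM in miR replicates 1 to 6, against 3.53, 6.27, 6.76, 6.66, 3.46 and 7.70 RPKM in PBS replicates 7 to 12 (-0.75 ± 0.18, limma adjusted p = 0.174). PBS replicates 7 and 11 were inside the miR range, as for Meg3. Mta1, a subunit of the NuRD deacetylase complex, averaged 15.8 ± 1.60 RPKM in miR and 18.6 ± 1.56 RPKM in PBS libraries (-0.23 ± 0.07, limma adjusted p = 0.174). The 4 tested of 6 listed genes of the imprinted Peg3 domain of chromosome 7 all had positive differences and none an unadjusted p under 0.05. Peg3, a zinc finger gene expressed from the paternal allele, averaged 190 ± 23.3 RPKM in miR and 180 ± 44.0 RPKM in PBS libraries.

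No gene of the other lists passed an adjusted p of 0.05 in limma, and at the unadjusted threshold the shares of all tested genes stand at 9.12% higher and 11.2% lower. Of 9 RNAs listed as nuclear-retained, which include Meg3, all 9 had a negative difference and 8 had an unadjusted p under 0.05. Their sums were 269 to 355 RPKM in miR and 283 to 1027 RPKM in PBS libraries. This list was chosen with earlier results of these data known, so its counts are no test. All 5 astrocyte markers had a positive difference, 3 at the unadjusted threshold with overlapping sums (398 to 451 RPKM in miR and 327 to 425 RPKM in PBS libraries), and all 5 endothelial markers a negative one, 2 at that threshold, also with overlapping sums (19.2 to 27.6 RPKM in miR and 23.5 to 30.7 RPKM in PBS libraries). Markers of neurons, microglia, oligodendrocytes, choroid plexus, meningeal fibroblasts, thalamus and blood held 2 genes at that threshold in all. Aif1, 1 of 5 microglial markers, had 3.85 to 4.61 RPKM in miR and 2.75 to 3.79 RPKM in PBS libraries, without overlap (0.36 ± 0.08). Dcn of meningeal fibroblasts had 1.65 to 2.39 RPKM in miR and 1.93 to 3.06 RPKM in PBS libraries (-0.33 ± 0.10). No marker of any list was at 0 in all libraries. The part of these markers in the zinc finger differences was not tested.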

How the data were processed

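Single-end, stranded poly-A libraries of 12 PVN punches were sequenced on 2 HiSeq2000 lanes, per the labels and the series design. The deposited table, made by the authors, holds RPKM values for 30399 transcript rows, per the file headers. The submitters' processing notes name mm9 and edgeR, whose role is not stated, and which aligner and read counter were used is not given in these sources. Depth was estimated from the smallest steps of the RPKM values of single-exon rows in each lane.

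Values were analysed as log2(RPKM + 0.5), a scale on which changes at low level are understated, for genes averaging 1 RPKM or more. limma 3.58.1 in R 4.3.3 was fitted without covariates to the 13273 genes, with a variance trend, 2-sided, and p-values were adjusted by Benjamini-Hochberg over all of them. The 12 rows without a symbol whose accession names a Zfp gene were not members. Members within 500 kb of each other formed a cluster. GC content (98.0% of tested genes) and coding sequences came from GENCODE M21 by RefSeq accession, and sharing was the percent of 50-base stretches found in transcripts of other genes. Promoters came from RefSeq (GRCm38.p6). Named were Zfp748 and its cluster, the 6 genes of highest level and the 6 of smallest p in each direction. Also named were the 2 on each side of the level limit, Meg3, Trim28, Setdb1 and the 2 genes of smallest p in the corepressor list. Others were named after their values were seen. The genes, lists, motifs and tests were chosen with earlier results of these data known. 2 genes are counted in the totals and not reported by themselves here. The scripts were tested on simulated data. Tried instead were a GC correction in 20 bins, quantile normalization, median scaling, library weights, robust empirical Bayes, a fit with no variance trend, pseudocounts of 1 and 0.1 RPKM, a limit of 5 RPKM or none, means over the rows of a gene, Meg3 as a covariate, PBS libraries left out in sets, and each library left out.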

Additional observations from a re-analysis of the deposited data

Results flagged for a closer look

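Of 68 groups of 6 libraries examined for the named genes, 2 held a library far from the other 5, where chance flags about 1 in 20 groups. Zfp187 was at 26.1 RPKM in PBS replicate 9, with the other PBS libraries at 18.2 to 21.2 RPKM. Meg3 was at 68.1 RPKM in miR replicate 6, with the other miR libraries at 49.9 to 55.1 RPKM.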

How the results depend on the processing

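The count of 21 of 100 genes at an unadjusted p under 0.05 moved to 9 after GC correction, 3 with the Meg3 covariate, 1 without PBS replicates 8, 9, 10 and 12, 33 without PBS replicates 7 and 11, 35 with library weights and 6 of 26 genes with a filter at 5 RPKM. Leaving out 1 library gave 12 to 28, the lowest without miR replicate 5 and also without PBS replicate 10. The median difference of 0.04 reversed to -0.0053 after GC correction and was 0.02 to 0.05 with 1 library left out. The 0 genes at an adjusted p under 0.05 became 3112 without PBS replicates 7 and 11 (21 of the 100) and 3035 with library weights (19 of the 100). With 1 library left out the count was 0 to 909, with 909 without PBS replicate 7, 429 without PBS replicate 11 and 1 without miR replicate 3. Beside Zfp748, whose p drew attention to the group and whose calls are therefore no test, Zfp146 and Zfp367 are called without PBS replicate 7, and 2 other genes of the 100 without replicate 11. The 9 genes of its cluster at an unadjusted p under 0.05 became 5 to 10 with 1 library left out. The difference of Zfp748 ran from 0.14 to 0.33 over its alternatives. PBS replicates 7 and 11 were singled out by their Meg3 level, so counts without them are not evidence about the injection. The sign of the difference reversed in Zfp738 (-0.071) and Zfp874b (-0.094) after GC correction. With the Meg3 covariate it reversed in Zfp187 (0.054), Zfp58 (0.010) and Zfp874b (-0.022). Without PBS replicates 8, 9, 10 and 12 it reversed in Zfp146 (-0.0062), Zfp187 (0.012), Zfp58 (0.0031) and Zfp874b (-0.035). Not all of these were near 0 in the main fit, where Zfp146 had 0.20 and Zfp187 -0.11. The cause was not tested. No paired analysis was possible because the groups share no replicate number. Depth limits the genes of few reads. The fewest estimated for a gene in a library were 57.9 reads, in Zfp524, which averaged 3.06 RPKM and has a transcript of 1142 bases.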
